A study of Mus musculus with 4 samples.

Results

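Fatty acids and their CoA esters are poorly soluble in water, and inside cells they are carried by small binding proteins. Fatty acid binding proteins (Fabp genes) hold free fatty acids in a barrel-shaped pocket and bring them to membranes, enzymes and nuclear receptors. Acyl-CoA binding proteins hold the activated form, the long-chain acyl-CoA. In liver the major carrier is the liver type Fabp1, known as a target of PPAR-alpha, a nuclear receptor activated by fatty acids. The 6 genes described here were listed by name: Fabp1 (liver type), Fabp2 (intestinal type), Fabp4 (adipocyte type), Fabp5 (epidermal type), Dbi, which encodes the acyl-CoA binding protein, and Acbd3, which encodes a Golgi protein with an acyl-CoA binding domain. All 6 of 6 were on the array, among 16504 genes measured, and each was read by 1 feature.

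The samples were liver RNA pools of polygenic obese mice at day 14 of a feeding trial, taken from mice fed conjugated linoleic acid (CLA, isomers of linoleic acid with conjugated double bonds) and from controls fed linoleic acid (LA). Each pool held 5 or 4 samples. On each of 4 arrays a pool from CLA-fed mice was hybridised with a pool from LA-fed mice. CLA was in Cy5 and LA in Cy3 on arrays 1 and 2. CLA was in Cy3 and LA in Cy5 on arrays 3 and 4. The sources used here give no strain, sex, age, dose or isomer, and nothing says which arrays share pools. P-values, SEs and intervals from the limma fit measure only the spread between arrays of the same labelling, which may be technical. The difference between the labellings is fitted as a coefficient and does not enter them. A bulk liver ratio cannot tell fewer cells of a type from less RNA per cell, and since the table holds ratios and no levels, neither the tissue label nor the order of the genes by abundance could be checked.

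Values are given as log2 ratios with the sign as deposited, where 1 is a 2-fold ratio. The direction of the ratio is not given, so 2 readings are set side by side. In the CLA/LA reading every array already runs as CLA over LA, and the effect is the mean of the 4 values. In the Cy5/Cy3 reading the values on arrays 3 and 4 are turned, and the effect is the mean after turning. Each reading takes the effect of the other as a difference between the dyes, and which reading applies was not tested. Arrays 1 and 2 enter both readings with the same sign, so agreement between the readings is not independent evidence. If the ratio on arrays 1 and 2 were Cy3 over Cy5, every sign in both readings would turn. Across genes, which are not independent replicates, the Pearson correlation was 0.37 between arrays 1 and 2, 0.73 between arrays 3 and 4, and -0.63 to -0.20 between arrays of opposite labelling. Of 4159 features with no named gene, 473 had a part that changed sign with the labelling by over 10-fold, all in the same direction, with medians of -8.67, -7.66, 8.75 and 8.54 on arrays 1 to 4. Of 18218 features with 1 gene symbol, 13 had such a part.

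Upstream sequence from RefSeq on build GRCm38.p6 is shown for the liver and intestinal carriers. The source used here held no upstream sequence for Fabp4, Fabp5 and Acbd3. The ratios of Fabp1 and Fabp2 had the most similar pattern after Fabp4 and Acbd3, and a link between sequence and ratios was not tested. Each run is the 250 bases before an annotated transcription start, 5′ to 3′ on the gene's strand. Capitals mark the motifs searched on both strands, which were the TATA box (TATAAA), the half-site of many nuclear receptors (AGGTCA) and a spaced repeat of 2 copies of AGGNCA with 1 base between them, a loose form of the element that PPAR binds with its partner RXR. A copy of the repeat with T as its free base is also an AGGTCA match.
Fabp1, chr6:71199629-71199878, plus strand: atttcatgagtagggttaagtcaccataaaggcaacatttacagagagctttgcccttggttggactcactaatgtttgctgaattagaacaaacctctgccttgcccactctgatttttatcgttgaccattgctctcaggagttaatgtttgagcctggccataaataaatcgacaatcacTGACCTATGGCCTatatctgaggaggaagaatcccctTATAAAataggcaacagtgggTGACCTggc
Fabp2, chr3:122894822-122895071, plus strand: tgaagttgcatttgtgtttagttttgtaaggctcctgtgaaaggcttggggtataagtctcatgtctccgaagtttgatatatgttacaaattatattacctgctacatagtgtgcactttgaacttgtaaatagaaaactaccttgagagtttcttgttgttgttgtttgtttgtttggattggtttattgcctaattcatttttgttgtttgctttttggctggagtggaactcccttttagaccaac

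The Fabp1 window held the spaced repeat on the opposite strand, as TGACCTATGGCCT, from 67 to 55 bases before the start. It also held TATAAA from 30 to 25 bases before the start and a second half-site, TGACCT, from 9 to 4 bases before it, while the other half-site lies within the repeat. The Fabp2 window held none of these letters. Among 32851 windows of the same length, 0.338% held the spaced repeat, 14.0% the half-site and 12.4% TATAAA. The letters were chosen with the Fabp1 sequence in view, and a match describes the sequence and not a bound site.

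Fabp1, the main fatty acid carrier of hepatocytes, had log2 ratios of 0.74 and 0.63 on arrays 1 and 2, then 0.28 and -0.38 on arrays 3 and 4. It was high on the arrays with CLA in Cy5, where it lay above 98.5% and 93.5% of all genes, and the 2 labellings did not overlap. The mean was 0.32 ± 0.13 in the CLA/LA reading (SE, n = 4, a 1.25-fold ratio, limma adjusted p = 0.39) and 0.37 ± 0.13 in the Cy5/Cy3 reading (1.29-fold, adjusted p = 0.12). Neither passed the threshold of adjusted p 0.05. Single arrays moved these values, to 0.15 without array 3 and 0.48 without array 4 in the CLA/LA reading. In the Cy5/Cy3 reading they moved to 0.53 without array 3 and 0.20 without array 4. The 95% interval ran from -0.03 to 0.67 in the CLA/LA reading and from 0.02 to 0.72 in the Cy5/Cy3 reading, which leaves room for a rise of up to these sizes.

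Fabp2, the carrier best known from enterocytes, had 0.48 and 0.70 on arrays 1 and 2, then -0.10 and -0.46 on arrays 3 and 4. It changed sign with the labelling, so that after turning it lay above 0 on all 4 arrays. The Cy5/Cy3 reading gave 0.43 ± 0.10 (SE, n = 4, 1.35-fold, limma adjusted p = 0.053), just outside the threshold, with an interval of 0.16 to 0.70. Of 13 processing alternatives it passed in 2, with arrays scaled to a common spread (adjusted p = 0.048) and with a smooth trend over feature number removed (adjusted p = 0.041), and in the other 11 it did not, with adjusted p up to 0.20. The CLA/LA reading gave 0.15 ± 0.10 (adjusted p = 0.51), with 0.06 without array 3, 0.10 without array 2 and 0.25 without array 4.

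Fabp4, the adipocyte carrier, which macrophages and capillary endothelium also make, was the only gene of the 6 to pass a test, and it did so in the Cy5/Cy3 reading alone. Its ratios were -0.26 and -0.21 on arrays 1 and 2, then 0.59 and 0.97 on arrays 3 and 4. Both arrays with CLA in Cy5 were below 0 and both with CLA in Cy3 were above it. In the Cy5/Cy3 reading it fell by 0.51 with CLA (SE 0.10, n = 4, 0.703-fold, limma adjusted p = 0.039), below 0 on 4 of 4 arrays. The background of that reading was 17.1% of all genes called and 9.72% called lower, and 1 of 6 here is 16.7%, near the background. The call was lost when any single array was left out, with adjusted p between 0.078 and 0.17, and the log2 ratio there ran from -0.60 to -0.42. In the CLA/LA reading Fabp4 stood on the other side of 0, at 0.27 ± 0.10 (limma adjusted p = 0.36, interval 0.02 to 0.53), and at 0.18 without array 4. With that coefficient fitted alone, so that the labelling difference counted as spread, the SE was 0.25 (limma unadjusted p = 0.31). The sign of Fabp4 therefore depends on the reading, and no direction is settled for it.

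Fabp5, the epidermal carrier, which is also made by adipocytes and macrophages, was the only one below 0 on all 4 arrays as deposited, at -0.93 and -0.43 on arrays 1 and 2, then -0.09 and -1.07 on arrays 3 and 4. Of all genes, 4.92% were below 0 on all 4 arrays, and 9.64% kept a single sign. Fabp5 was among the lowest 2% of genes on arrays 1 and 4, above 1.61% and 1.64% of them, but in the middle on array 3, above 42.8%. The CLA/LA reading gave -0.63 ± 0.19 (SE, n = 4, 0.646-fold), the widest distance from 0 among the 6 genes in that reading. It did not pass in limma (unadjusted p = 0.025, adjusted p = 0.36, interval -1.14 to -0.12). In that reading 0% of all genes were called, and 13.5% had an unadjusted p under 0.05, against 2 of these 6 (Fabp4 and Fabp5). Without array 3 it was -0.87 and without array 4 it was -0.39. The Cy5/Cy3 reading gave -0.05 ± 0.19 (adjusted p = 0.87), with arrays pulling in opposite directions.

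**Figure D1:**
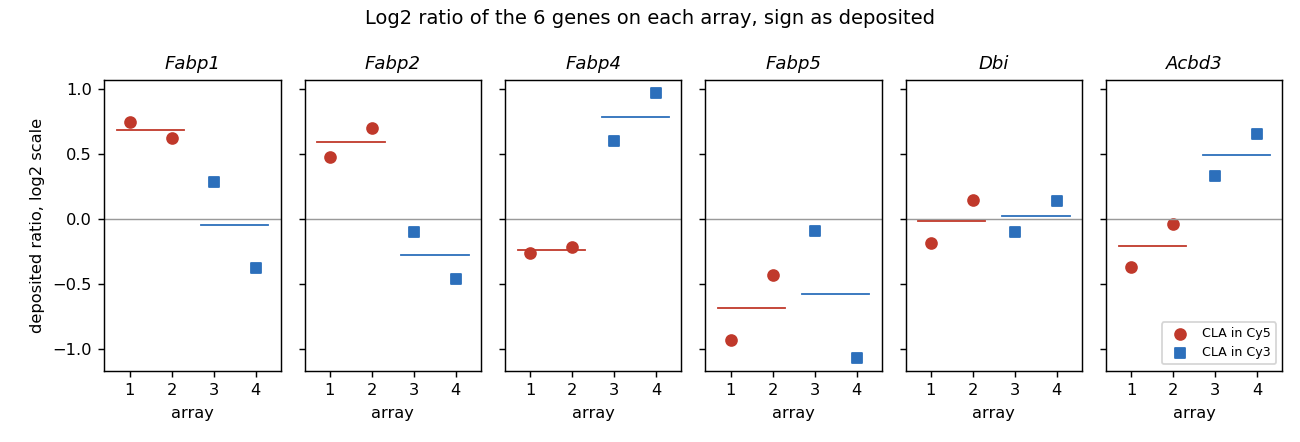
Deposited log2 ratio (vertical axis) of the 6 genes on arrays 1 to 4 (horizontal axis), with red circles for CLA in Cy5, blue squares for CLA in Cy3 and a line at the mean of each labelling. Fabp1 and Fabp2 are higher on arrays 1 and 2, Fabp4 and Acbd3 are higher on arrays 3 and 4, Fabp5 is below 0 on all 4, and Dbi stays within 0.2 of 0.

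Dbi, which carries acyl-CoA esters in nearly every tissue, had the smallest ratios, at -0.18 and 0.15 on arrays 1 and 2, then -0.10 and 0.14 on arrays 3 and 4. Each labelling had a value on either side of 0. The mean was 0.00 ± 0.10 in the CLA/LA reading (SE, n = 4, limma adjusted p = 1.00) and -0.02 ± 0.10 in the Cy5/Cy3 reading (adjusted p = 0.90). The intervals ran from -0.26 to 0.26 and from -0.28 to 0.24, and a change of the size called for Fabp4 lay outside both. They cover only the spread between arrays of the same labelling, so they cannot exclude such a change between mice.

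Acbd3, the Golgi protein, had -0.37 and -0.04 on arrays 1 and 2, then 0.33 and 0.65 on arrays 3 and 4, the same order as Fabp4 at a smaller size. After turning it was below 0 on all 4 arrays, and the Cy5/Cy3 reading gave -0.35 ± 0.11 (SE, n = 4, 0.786-fold, limma adjusted p = 0.086, interval -0.63 to -0.07). In the CLA/LA reading it was at 0.14 ± 0.11 (adjusted p = 0.55), with 0.060 without array 2, 0.061 without array 4 and 0.22 without array 3 and 0.23 without array 1. It did not pass in either reading.

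**Figure D2:**
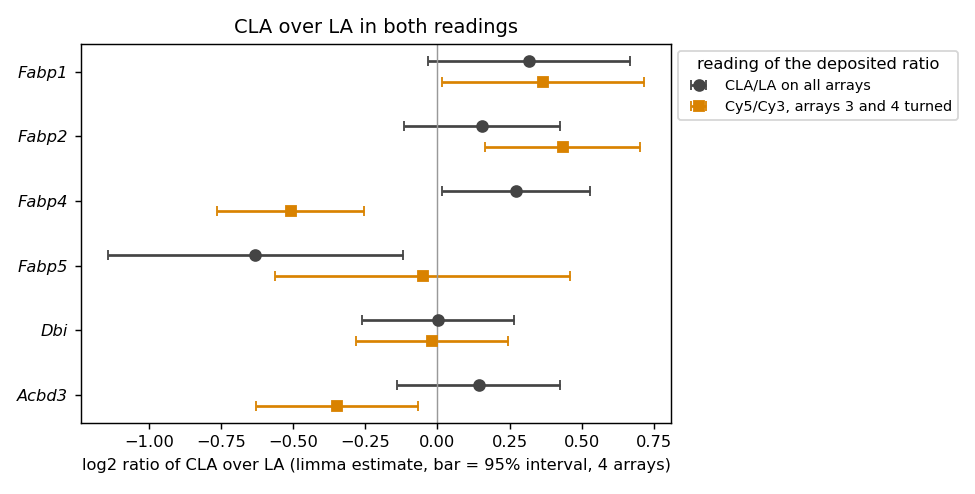
Limma estimate of the log2 ratio of CLA over LA (horizontal axis) for each gene, from 4 arrays. Black circles show the CLA/LA reading and orange squares the Cy5/Cy3 reading. Bars are 95% intervals from the spread between arrays of the same labelling. Fabp1 and Fabp2 are above 0 in both readings, Fabp4 and Acbd3 change side between them, Fabp5 is farthest from 0 in the CLA/LA reading at -0.63, and Dbi is at 0 in both.

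Over the 6 genes, the values of arrays 1 and 2 did not overlap those of arrays 3 and 4 for 4 genes (Fabp1, Fabp2, Fabp4 and Acbd3), or 66.7%, against 67.3% of all genes. After turning, 3 of the 6 had a single sign on all 4 arrays, against 42.9% of all genes. These shares are near the background. At an unadjusted limma p under 0.05 in the Cy5/Cy3 reading there were 4 of the 6, or 66.7%, against 38.5% of all genes. That difference was not tested. The median of the 6 log2 ratios was 0.15 in the CLA/LA reading and -0.03 in the Cy5/Cy3 reading, beside medians over all genes of 0.00059 and 0.02.

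Differences between the carriers on the same array were set against each other for 15 pairs. Fabp4 exceeded Fabp5, which adipocytes and macrophages make beside it, by 0.67 and 0.22 on arrays 1 and 2, then by 0.69 and 2.03 on arrays 3 and 4 as deposited. Fabp1 exceeded Fabp5 by 1.68, 1.06, 0.37 and 0.69 on arrays 1 to 4. In the CLA/LA reading these differences averaged 0.90 ± 0.79 and 0.95 ± 0.56 (SD, n = 4), and with Fabp5 minus Acbd3 they were the 3 pairs of 15 with a single sign on all arrays. Their exact two-sided permutation p was 0.125, the smallest that 4 arrays allow, so no pair could pass, and 0.625 after adjustment over the 15 pairs. In the Cy5/Cy3 reading Fabp4 minus Fabp5 averaged -0.46 ± 1.19 and Fabp1 minus Fabp5 averaged 0.42 ± 1.13, each above 0 on only 2 of 4 arrays. There 6 pairs had a single sign, among them Fabp2 minus Fabp4, at 0.94 ± 0.34 (exact permutation p = 0.125, adjusted 0.31).

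The ratios as deposited shifted with feature number. The smooth trend over feature number stood at -0.24 and -0.18 at Fabp1 on arrays 3 and 4, at -0.22 and -0.16 at Acbd3, and at 0.12 and 0.24 at Fabp2 and Fabp5. With it removed, the CLA/LA reading gave 0.45 for Fabp1, 0.27 for Acbd3, 0.05 for Fabp2 and -0.74 for Fabp5, none past the threshold, and Fabp4 moved to 0.32. In the Cy5/Cy3 reading Fabp4 was at -0.49 (limma adjusted p = 0.038) and Fabp2 at 0.51 without the trend. Feature number was not matched to a position on the array, and the part of array position in the ratios as deposited was not tested.

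**Figure D3:**
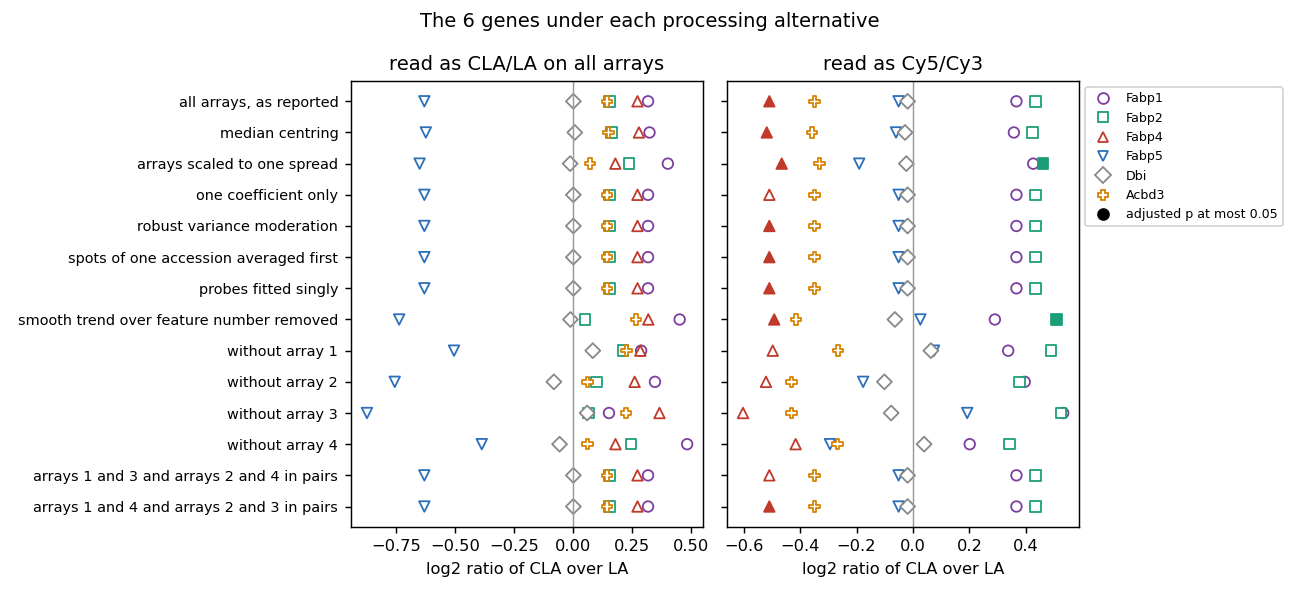
Log2 ratio of CLA over LA (horizontal axis) for the 6 genes, with all arrays and under 13 processing alternatives (rows), in the CLA/LA reading on the left and the Cy5/Cy3 reading on the right; filled symbols passed at adjusted p 0.05. No symbol is filled on the left. On the right Fabp4 is filled with all arrays and under 7 of the 13 alternatives, and Fabp2 is filled in 2 rows.

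Genes of the same protein family were described from a list of 11 other intracellular lipid binding proteins, 9 of them measured. Of these, 1 was called lower and 0 higher in the Cy5/Cy3 reading, where 17.1% of all genes were called and 9.72% called lower, with 6 of the 9 above 0, 3 of them higher at an unadjusted p under 0.05, and a median log2 ratio of 0.17. The called gene was Fabp9, the testis type, at -0.49 ± 0.09 (SE, n = 4, limma adjusted p = 0.036), with -0.20, -0.25, 0.90 and 0.62 on arrays 1 to 4. Its 2 probes disagreed. The probe for NM_011598 had -0.36, -0.31, 2.00 and 1.20, and the probe for U96149 had -0.04, -0.19, -0.19 and 0.03. In the RefSeq gene order of chromosome 3, Fabp9 lies between Pmp2, not analysed here, and Fabp4, with Fabp5 on the far side of Pmp2 and Fabp12 next to Fabp4. Fabp12 was at 0.18 ± 0.09 in the Cy5/Cy3 reading (adjusted p = 0.21) and -0.13 ± 0.09 in the CLA/LA reading (adjusted p = 0.51). Of the 4 measured genes in that row, Fabp4 and Fabp9 had the same order of the labellings, Fabp12 the opposite one, and the labellings overlapped for Fabp5. For Fabp9 this order came from 1 of its 2 probes, and the labellings overlapped in the other. The labellings did not overlap for 67.3% of all genes. Limma called 0 of the 9 in the CLA/LA reading (4 at an unadjusted p under 0.05), with a median of -0.13, and the smallest p values belonged to Fabp9 at 0.27 ± 0.09 and to Crabp1, a retinoic acid carrier, at -0.34 ± 0.12 and below 0 on all 4 arrays (adjusted p = 0.36 for each).

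Relatives of Dbi and Acbd3 came from a list of 8 genes with acyl-CoA binding domains or sterol carrier and other lipid transfer functions, 7 of them measured. The Cy5/Cy3 reading called 1 higher and 1 lower, against 17.1% of all genes called, with 5 of the 7 above 0 and a median of 0.08. Acbd4 fell by 0.67 (SE 0.09, n = 4, limma adjusted p = 0.025), from deposited values of -0.51, -0.55, 0.69 and 0.94. Acbd5, known in human cells as a tether between peroxisomes and endoplasmic reticulum, rose by 0.62 (SE 0.08, adjusted p = 0.026), from 0.64, 0.40, -0.72 and -0.72. The called relatives thus had opposite signs, and Acbd3, which did not pass, had the sign of Acbd4. Among the 7, limma in the CLA/LA reading called 0 (0 at an unadjusted p under 0.05), with a median of -0.01. There, Eci2, an isomerase of unsaturated fatty acid oxidation that carries an acyl-CoA binding domain, was at 0.22 ± 0.08 (adjusted p = 0.37) and Acbd4 at 0.14 ± 0.09 (adjusted p = 0.47). Scp2, the sterol carrier protein, stood near 0 in the CLA/LA reading at -0.02 ± 0.08 (adjusted p = 0.91) and in the Cy5/Cy3 reading at 0.09 ± 0.08 (adjusted p = 0.45).

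Fatty acid uptake, the step before binding, had 8 of 9 listed genes measured. Of these, 2 were called lower and 0 higher in the Cy5/Cy3 reading, against 9.72% of all genes called lower, with 5 of the 8 below 0, 3 above it (1 higher at an unadjusted p under 0.05) and a median of -0.18. Slc27a2, a transporter and very long chain acyl-CoA synthetase, fell by 0.69 (SE 0.14, n = 4, limma adjusted p = 0.044), and Cav1, the caveola protein, fell by 0.51 (SE 0.09, adjusted p = 0.033). In the CLA/LA reading, where limma called 0 (1 at an unadjusted p under 0.05) and the median was 0.11, Slc27a2 was at 0.57 ± 0.14 (adjusted p = 0.35). Cd36, the fatty acid translocase, had 0.17, 1.90, 0.17 and 0.75 on arrays 1 to 4. It was above 0 on all arrays and by far highest on array 2, at 0.74 ± 0.31 in the CLA/LA reading (adjusted p = 0.38) and 0.29 ± 0.31 in the Cy5/Cy3 reading (adjusted p = 0.53).

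Receptors and partners that act on these carriers had 7 of 8 listed genes measured and 0 called by limma in either reading (0 in the CLA/LA and 3 in the Cy5/Cy3 reading at an unadjusted p under 0.05, against 13.5% and 38.5% of all genes). Ppara was at 0.10 ± 0.10 in the CLA/LA reading and 0.06 ± 0.10 in the Cy5/Cy3 reading, with 0.32, 0.01, 0.13 and -0.06 on arrays 1 to 4 (SE, n = 4, limma adjusted p = 0.63 and 0.66). Pparg was at 0.08 ± 0.09 and 0.12 ± 0.09 (adjusted p = 0.68 and 0.38). The smallest p values were those of Hnf4a, a hepatocyte factor, at 0.16 ± 0.09, and Rxrb at 0.17 ± 0.12 in the CLA/LA reading, and of Rxra at -0.28 ± 0.08 and Rxrb at -0.42 ± 0.12 in the Cy5/Cy3 reading (adjusted p = 0.075 and 0.079), the RXR genes encoding the partners of PPAR.

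**Figure D4:**
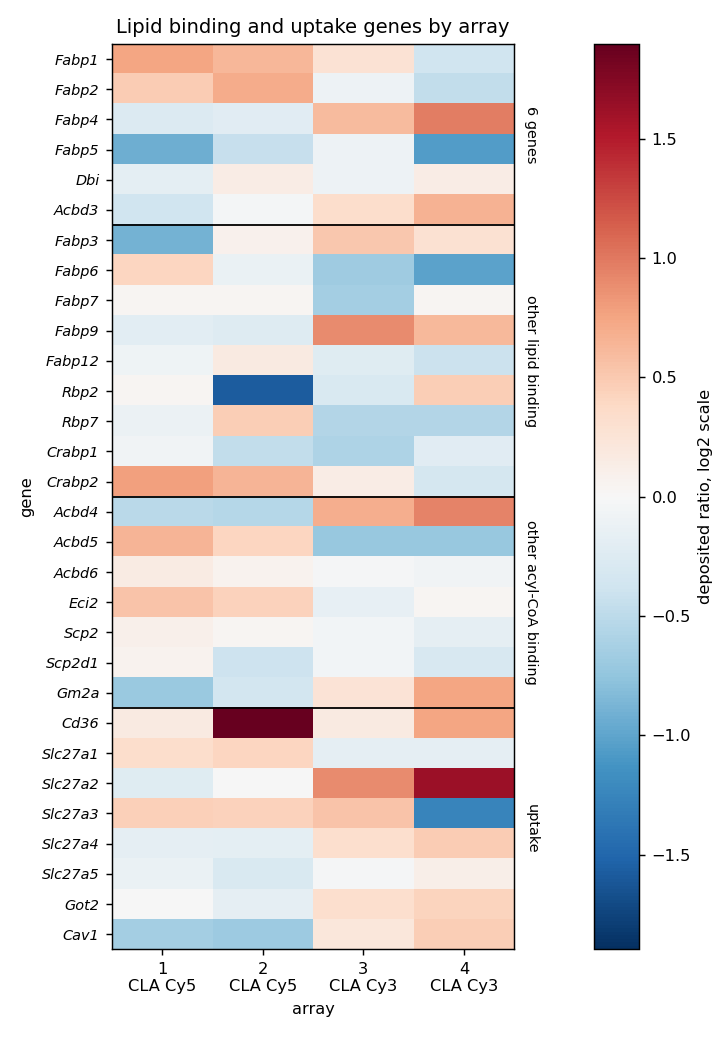
Deposited log2 ratio (colour, red above 0 and blue below) of the 6 genes, other lipid binding genes, other acyl-CoA binding genes and uptake genes (rows) on arrays 1 to 4 (columns, with the dye of CLA). Fabp4, Fabp9, Acbd3, Acbd4 and Slc27a2 are below 0 on arrays 1 and 2 and above 0 on arrays 3 and 4, Acbd5 is the other way round, and Cd36 on array 2 is the darkest red at 1.90.

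Markers of cell types in which Fabp4 and Fabp5 are abundant were set beside them. The 9 measured of 10 adipocyte markers had list means of -0.36, 0.26, 0.29 and 0.45 on arrays 1 to 4, and in the Cy5/Cy3 reading 2 fell, Cidea, a lipid droplet protein, by 1.04 (limma adjusted p = 0.035) and Retn, the hormone resistin, by 0.65 (adjusted p = 0.036). Macrophage markers (8 of 10 measured) had means of 0.01, -0.26, -0.14 and 0.37, with Marco falling by 0.54 (adjusted p = 0.044). Endothelial markers (10 of 10) had means of 0.04, -0.17, -0.06 and 0.10, with Eng falling by 0.39 (adjusted p = 0.042). The lists ran both ways in this reading, with 4 adipocyte markers above 0 and 5 below (median -0.06), 4 macrophage markers on each side (median -0.10) and 4 endothelial markers above and 6 below (median -0.11), against 17.1% of all genes called. No marker of these lists was called higher, while 1 macrophage and 1 endothelial marker were higher at an unadjusted p under 0.05. The part of these cells in the ratio of Fabp4 was not tested. For the CLA/LA reading limma called 0 in each (1 adipocyte marker and 0 of the others at an unadjusted p under 0.05).

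For Fabp1, Fabp2 and Fabp5 the markers of their home tissues gave these values. Intestinal epithelium markers (8 of 10 measured) had means of -0.01, -0.17, -0.09 and -0.08 on arrays 1 to 4, and keratinocyte markers (9 of 10) had means of -0.07, 0.19, -0.08 and -0.04, with 0 called by limma in either reading (2 of each list at an unadjusted p under 0.05 in each reading). Hepatocyte markers (8 of 10) had means of 0.17, 0.04, 0.06 and 0.02. Tat, the tyrosine aminotransferase, rose by 0.62 in the Cy5/Cy3 reading (limma adjusted p = 0.035), the sole call in that list. There 5 of the 8 were above 0 and 3 below, the lowest at -0.72 (median 0.08). In the CLA/LA reading limma called 0 of the 8, with 1 higher and 1 lower at an unadjusted p under 0.05. Over all genes the Cy5/Cy3 reading called 17.1%, and 38.5% had an unadjusted limma p under 0.05. For the CLA/LA reading these shares were 0% and 13.5%. The part of these cells in the ratios of Fabp1, Fabp2 and Fabp5 was not tested.

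The genes most like each carrier were taken as the 2 with the smallest Euclidean distance over the 4 deposited log2 ratios, among 16504 genes. Crabp2, a retinoic acid carrier of the same protein family, was the nearest to Fabp1, at a distance of 0.16, with 0.78, 0.65, 0.14 and -0.33 on arrays 1 to 4, and Rgmb followed at 0.19. Klf10 and Ptpn22 were nearest to Fabp2 (0.13 and 0.16), Mapk13 and Slc39a5 to Fabp4 (0.07 and 0.09), and Kap and Ptpn2 to Acbd3 (0.06 and 0.09). Fabp5 had the largest distance to its nearest genes, Zfp182 and Cckar, at 0.44 and 0.47. It also lay farthest from 0 among the 6, at a distance of 1.48. For Dbi, which lies close to 0 itself, Slc22a21 and 1700013F07Rik were nearest (0.06 each). Within the 6, Fabp4 and Acbd3 were the closest pair at 0.46, followed by Fabp1 and Fabp2 at 0.48, and Fabp4 and Fabp5 were the farthest apart at 2.26. These distances over 4 arrays are a description.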

How the data were processed

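The deposited table holds 1 column per array of log ratios of 2 dyes over 22393 features, with no missing values. The deposited values were taken as log10 and multiplied by 3.32; the sources used here give no log base, direction, normalization or software. If the base were 2 every log2 value would be smaller by that factor. Deposited values ran from -3.17 to 3.28, with array medians between -0.0023 and 0.0010. Spot intensities and flags were not used, so the signal behind each ratio is unknown and the number of arrays limits the precision.

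Features with 1 gene symbol (18218; 16 had several and 4159 none) were averaged per gene, for 16504 genes. Gene numbers of 18175 features matched RefSeq on GRCm38.p6 and changed 0 symbols. Genes were fitted together in R 4.3.3 with limma 3.58.1 (lmFit, eBayes), with 1 coefficient that keeps its sign across labellings (CLA/LA reading) and 1 that changes it (Cy5/Cy3 reading), 2 residual and 2.67 prior degrees of freedom, and Benjamini-Hochberg adjustment over all genes. Simulated data of 16504 genes had 200 of them changed. Of genes changed by 1 log2, 49.5% were recovered for the sign-keeping and 61.0% for the sign-changing coefficient, and 0% of those changed by 0.5 for each. In the real data the Cy5/Cy3 reading called 2821 genes, so these shares do not give the recovery of that reading. Named genes are the 6 members; up to 4 called genes per list or else the 2 smallest p values; Ppara, Cd36, Scp2 and Pparg; called cell type markers; and the 2 nearest genes per member. The members and lists were chosen with earlier results of these data known. Figures used matplotlib 3.10.9 in Python 3.11.15.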

Additional observations from a re-analysis of the deposited data

How the results depend on the processing

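In the CLA/LA reading limma called no gene of 16504 under any of the 14 alternatives run. With all arrays, 2234 had an unadjusted limma p under 0.05. Fabp1, Fabp2, Fabp4, Fabp5 and Acbd3 kept their sign under all 13 alternatives run for each, but not all of these could change it. Their estimates stay the same with a single coefficient, robust variance moderation, averaging by accession, probes fitted singly or arrays in pairs. The sign could turn only with median centring, scaled arrays, the trend removed or an array left out. In the Cy5/Cy3 reading 2821 genes were called, 1202 with a single coefficient, 125 with arrays 1 and 3 and arrays 2 and 4 in pairs, 1957 with arrays 1 and 4 and arrays 2 and 3 in pairs, 5384 at adjusted p 0.1, and 0 to 739 with an array left out, the 0 being when array 3 or array 4 was left out (where limma gave 4713 and 4016 genes an unadjusted p under 0.05). Those fits keep 1 residual degree of freedom, and the cause was not tested. Fabp4 stayed at -0.51 but lost its call with a single coefficient (limma adjusted p = 0.083) and in the pairs of arrays 1 and 3 and arrays 2 and 4 (adjusted p = 0.080), kept it in the pairs of arrays 1 and 4 and arrays 2 and 3 (adjusted p = 0.0497), and ran from -0.60 to -0.42 with an array left out. Fabp2, at 0.43 with all arrays, was called at 0.46 with scaled arrays and 0.51 with the trend over feature number removed. Fabp5 in this reading changed sign to 0.026 with that trend removed, to 0.07 without array 1 and to 0.19 without array 3, with a range of -0.29 to 0.19 over the arrays left out. Dbi, close to 0, was at -0.013 in the CLA/LA reading with scaled arrays and -0.012 with the trend removed, and ran from -0.082 to 0.083 with an array left out, and from -0.10 to 0.064 in the Cy5/Cy3 reading. Both pairings of opposite labellings were tried because shared pools are not stated, and no fit with a replicate number as block was possible because the labellings share none. Signal over background, which limits single ratios, is unknown here.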
